A study of Homo sapiens with 19 samples.

Results

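The insulin-like growth factor (IGF) axis was followed through 10 genes: the binding proteins IGFBP1, IGFBP2, IGFBP3, IGFBP4, IGFBP5, IGFBP6 and IGFBP7, the ligand IGF2, and the receptors IGF1R and IGF2R. They were taken by symbol from a table of 23441 genes, of which 14225 passed the filter on low counts. Of the 10 genes, 8 passed that filter, and IGFBP2 and IGF2 did not. The set was chosen by name, and also because IGFBP5 was far higher after HIF-1α re-expression, so the HIF-1α against control values of all 10 genes are given here as a description without a test. IGFs are secreted peptides that signal for growth and survival through IGF1R, a receptor tyrosine kinase. IGF2R, the cation-independent mannose-6-phosphate receptor, carries IGF2 to the lysosome and does not signal as a kinase. IGFBP1 to IGFBP6 bind IGFs with high affinity and, depending on the setting, hold them away from the receptor or deliver them to it, whereas IGFBP7 binds IGFs only weakly. IGFBP6 binds IGF2 in preference to IGF1, IGFBP3 is the main carrier in plasma, and IGFBP1 and IGFBP3 are well known hypoxia-inducible genes.

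The cells were 786-O, a clear cell renal carcinoma line that has lost functional VHL, the ubiquitin ligase component that marks HIF-α for destruction, so that HIF-2α is stable in normal oxygen in all groups. The line makes a truncated HIF-1α rather than the full-length protein. Pools of cells were infected with a pRRL lentivirus that carried no HIF cDNA (the control), HIF-1α cDNA (HIF-1α re-expressing cells) or HIF-2α cDNA (HIF-2α overexpressing cells, EPAS1 being the HIF-2α gene). RNA was sequenced in 3 libraries of each pool. Chromatin immunoprecipitation followed by sequencing (ChIP-seq) gave 7 peak lists, 1 library each: HIF-2α and the shared partner HIF-1β in control cells, all 3 subunits in cells re-expressing HIF-1α, and HIF-2α with HIF-1β in cells overexpressing HIF-2α. The transgenes were driven by the vector in infected pools and not in clones, and in bulk libraries a small change in every cell and a large change in some cells cannot be told apart.

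Library totals ran from 27852754 to 54287621 counts. The labels held at the level of the transgenes: HIF1A was at 171, 1682 and 473 CPM (read counts scaled by the TMM-adjusted library size) in the HIF-1α re-expressing libraries against 30.4, 36.7 and 152 in controls, and EPAS1 was at 946, 3244 and 880 CPM in the HIF-2α overexpressing libraries against 456, 224 and 162. Control replicate 3 was thus close to HIF-1α re-expressing replicate 1 in HIF1A. CA9, a known HIF-1 target, was at 0, 0.171 and 14.3 CPM in controls 1, 2 and 3. In HIF-1α re-expressing libraries CA9 was at 8.46, 177 and 68.3 CPM. The reason for the values of control replicate 3 was not tested. EPAS1 was also at 575, 627 and 397 CPM in the HIF-1α re-expressing libraries, and HIF1A at 15.3, 30.4 and 17.5 CPM in the HIF-2α overexpressing ones. All 8 renal markers reached 1 CPM in at least 1 library, with sums of 4565 to 7165 CPM over the libraries to which VIM gave the most, whereas 0 of 4 endothelial and 0 of 5 blood cell markers did in any. Not every renal marker did so in every library. CA9 was at 0.120, 0.105 and 0.694 CPM in HIF-2α overexpressing libraries, and NDUFA4L2 at 0.171 and 0.287 CPM in controls 2 and 3. Of 5 fibroblast markers 3 reached 1 CPM in at least 1 library, with sums of 2.69 to 9.51 CPM in controls, 2.52 to 19.2 in HIF-1α re-expressing and 1.76 to 15.4 in HIF-2α overexpressing cells. Libraries with the same replicate number deviated together from their pool means (Pearson r over genes 0.348 to 0.652 in all 9 same-number pairs and -0.478 to 0.0281 in the 18 others), so fits with the replicate number as a block are given beside those without it where the call differs. Nothing in the labels says that the 3 libraries of a pool came from separate cultures, so p-values measure only the spread between these libraries.

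On GRCh37, IGFBP1 lies at chr7:45927959-45933259 on the plus strand, tail to tail with IGFBP3 at chr7:45951844-45961473 on the minus strand. IGFBP2 lies at chr2:217497551-217529159 on the plus strand, with IGFBP5 beyond it at chr2:217536828-217560272 on the minus strand. IGFBP6 lies at chr12:53491220-53496129 (plus), IGFBP4 at chr17:38599702-38613977 (plus) and IGFBP7 at chr4:57896939-57976551 (minus). IGF2 lies at chr11:2150342-2179621 (minus), IGF1R at chr15:99191768-99507759 (plus) and IGF2R at chr6:160390114-160534539 (plus). IGFBP1, IGFBP2, IGFBP3, IGFBP4, IGFBP6 and IGF1R share no annotated exonic base with another gene. IGFBP5 shares 487 of its 6466 exonic bases with the antisense transcript DIRC3-AS1, IGFBP7 shares 260 with POLR2B and 94 with IGFBP7-AS1 on the other strand, and IGF2R shares 571 with CHP1P2. The strand setting of the counting was not given in the sources used here.

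The overlapping peaks at IGFBP6, 1 for each of 3 antisera in 3 pools, are shown first because IGFBP6 was the gene of the set that separated the HIF-2α overexpressing cells from both other pools. Each deposited peak is a window of 2500 bp without a height or score, so the midpoint of the window is the position used. Sequences are from GRCh37, plus strand, 5′ to 3′. Capitals mark the letters of the HIF response element core (ACGTG or GCGTG, or CACGT or CACGC on the other strand, which overlap in CACGTG and then count on both strands) or of the AP-1 motif (TGACTCA or TGAGTCA, the reverse complements of each other). All 3 stretches are intronic and lie around the midpoint of the peak named.
HIF-1α peak in HIF-1α re-expressing cells, chr12:53491836-53492027: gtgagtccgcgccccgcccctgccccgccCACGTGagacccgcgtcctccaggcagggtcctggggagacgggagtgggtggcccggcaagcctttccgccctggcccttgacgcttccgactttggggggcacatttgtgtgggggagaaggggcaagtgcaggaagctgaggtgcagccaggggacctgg
HIF-1β peak in control cells, chr12:53492432-53492640: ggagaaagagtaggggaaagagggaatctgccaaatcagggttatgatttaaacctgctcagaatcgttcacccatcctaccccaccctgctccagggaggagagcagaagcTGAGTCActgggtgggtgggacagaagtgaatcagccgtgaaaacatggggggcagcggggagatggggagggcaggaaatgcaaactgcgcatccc
HIF-2α peak in HIF-2α overexpressing cells, chr12:53492743-53492944: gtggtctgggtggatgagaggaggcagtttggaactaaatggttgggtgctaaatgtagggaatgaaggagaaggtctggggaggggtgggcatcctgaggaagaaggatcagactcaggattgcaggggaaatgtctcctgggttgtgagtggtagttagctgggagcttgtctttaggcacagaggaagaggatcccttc

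The HIF-1α midpoint was 9 bp from the palindrome CACGTG, 657 bp into the gene. The HIF-1β midpoint was 34 bp from an AP-1 match and 481 bp from the nearest HIF core, and the HIF-2α midpoint was 247 bp from an AP-1 match and 694 bp from the nearest HIF core. A HIF core occurred within the central 300 bp of 65.4% of the HIF-1α peaks, 57.2% of the HIF-1β peaks of control cells and 45.7% of the HIF-2α peaks of overexpressing cells, and in 51.7% of 22063 promoters of the same length. An AP-1 match occurred in 7.73%, 14.9% and 24.7% of these peaks and in 4.03% of promoters. A match is a run of letters and not a shown binding site. Promoters were the only comparison, and the windows lay around midpoints and not summits. These shares therefore do not show enrichment or depletion of a motif in the peaks.

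IGFBP3, IGF1R and IGF2R are shown for their HIF cores near start sites, and IGFBP3 also for a site upstream that was present in all 7 lists. For that site the stretch printed is the centre of the endogenous HIF-2α window of control cells and not a centre shared by the lists.
IGFBP3, HIF-2α peak in HIF-2α overexpressing cells, upstream, chr7:45963562-45963861: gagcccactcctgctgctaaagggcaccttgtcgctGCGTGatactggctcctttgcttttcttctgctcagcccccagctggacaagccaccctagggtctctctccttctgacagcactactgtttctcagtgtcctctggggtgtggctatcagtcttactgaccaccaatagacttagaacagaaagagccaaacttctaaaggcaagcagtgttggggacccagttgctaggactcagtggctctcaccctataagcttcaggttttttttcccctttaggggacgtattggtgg
IGFBP3, upstream site in all 7 lists, chr7:46017816-46018115: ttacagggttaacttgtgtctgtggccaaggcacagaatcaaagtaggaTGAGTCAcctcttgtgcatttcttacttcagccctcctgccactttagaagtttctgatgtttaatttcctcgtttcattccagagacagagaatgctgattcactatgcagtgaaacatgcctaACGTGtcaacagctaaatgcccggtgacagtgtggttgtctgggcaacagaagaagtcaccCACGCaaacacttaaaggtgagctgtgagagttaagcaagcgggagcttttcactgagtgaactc
IGF1R, HIF-1α peak in HIF-1α re-expressing cells, intron, chr15:99193691-99193990: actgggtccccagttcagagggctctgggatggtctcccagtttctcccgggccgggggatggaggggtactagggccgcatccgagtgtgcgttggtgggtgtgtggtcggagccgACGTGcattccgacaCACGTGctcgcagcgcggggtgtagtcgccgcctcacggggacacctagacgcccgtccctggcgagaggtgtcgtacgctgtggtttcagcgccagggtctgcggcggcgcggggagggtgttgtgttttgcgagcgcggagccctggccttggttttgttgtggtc
IGF2R, HIF-1β peak in HIF-1α re-expressing cells, immediately upstream, chr6:160390013-160390113: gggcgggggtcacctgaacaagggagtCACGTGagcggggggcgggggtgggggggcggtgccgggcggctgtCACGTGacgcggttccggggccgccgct

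Expression per kilobase of the canonical transcript placed IGFBP3 at the top in control cells at 507 ± 421 CPM per kb (SD, n = 3), followed by IGFBP7 at 186 ± 94.4, IGFBP6 at 48.0 ± 18.8 and IGF2R at 29.7 ± 19.9. IGFBP4 at 6.64 ± 5.73, IGFBP1 at 6.18 ± 0.996 and IGF1R at 3.12 ± 1.10 CPM per kb came next, and IGFBP5 at 0.0879 ± 0.130, IGFBP2 at 0.00610 ± 0.0106 and IGF2 at 0 closed the order. The ranges of IGFBP3 (135 to 964 CPM per kb) and IGFBP7 (127 to 295) overlapped, as did those of IGFBP6 (28.1 to 65.5) and IGF2R (11.7 to 51.1), but within each control library IGFBP3 was above IGFBP7 and IGFBP6 above IGF2R (65.5 against 51.1, 28.1 against 26.3 and 50.3 against 11.7). IGFBP4 (3.30 to 13.3) overlapped IGF2R, IGFBP1 (5.37 to 7.29) and IGF1R (2.404 to 4.38), and its place among these 3 changed between libraries, since in number 3 it was above IGF2R (13.3 against 11.7).

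**Figure D1:**
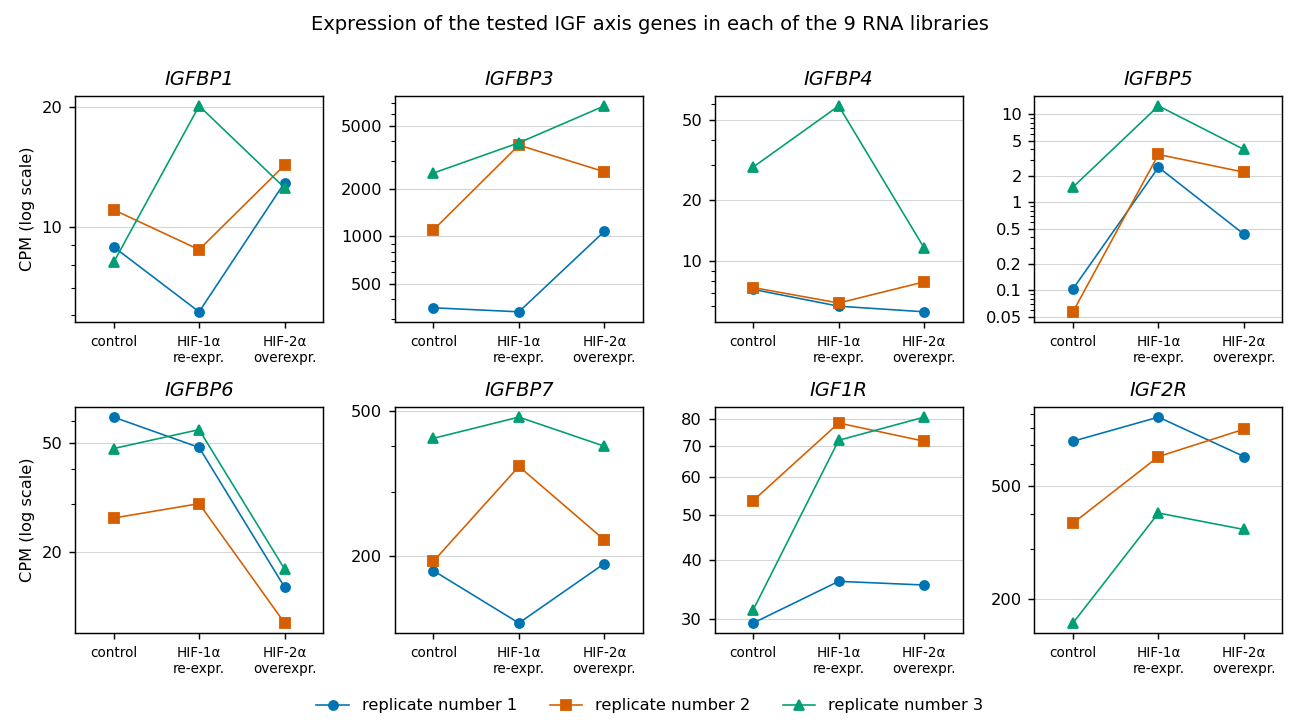
Expression of the 8 tested IGF axis genes in CPM (log axis) in each of the 9 RNA libraries, with a point for each library and lines joining libraries of the same replicate number. IGFBP6 lay between 10.99 and 17.3 CPM in the HIF-2α overexpressing libraries, under all 6 others, and IGFBP5 was higher in all 3 HIF-1α re-expressing libraries than in any control.

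The first comparison asked which of these genes differed when HIF-2α was overexpressed on top of the HIF-2α that the cells already had. IGFBP6 was at 62.1, 26.6 and 47.7 CPM in the control libraries 1, 2 and 3 and at 14.9, 10.99 and 17.3 CPM in the HIF-2α overexpressing ones (45.4 ± 17.9 against 14.4 ± 3.18, SD, n = 3 each). Every HIF-2α overexpressing library was under every control library, and the ratios within replicate numbers were 0.239, 0.414 and 0.363. The log2 fold change was -1.66 (SE 0.35), which did not pass edgeR's quasi-likelihood test without the replicate block (adjusted p = 0.490) and passed it with the block at -1.61 (SE 0.20, adjusted p = 0.0191), a 3.05-fold lower level. Without the block 0 of 14225 genes passed (unadjusted p-values under 0.05 were found for 476 upward and 362 downward), and with it 38 did (0.267% of those tested, with 0.155% lower), IGFBP6 being the only 1 of the 8 tested IGF axis genes among them. Leaving out 1 library at a time in the blocked fit kept the call in 5 of 9 fits. It was lost without HIF-2α overexpressing replicate 1 (adjusted p = 0.0797) or 3 (0.127) and without control replicate 2 (0.0797) or 3 (0.0672), with log2 fold changes of -1.74 to -1.39 over the 9 fits. Of the 8 renal markers 7 had a negative log2 fold change in the same comparison (median -0.60, against -0.02 over all genes), 5 were lower in 3 of 3 replicate numbers and 3 (PAX8, KRT8 and KRT18) did not overlap control, although 0 of 8 passed the blocked test. Over all genes tested, 19.4% were lower in all 3 replicate numbers and 11.2% did not overlap control in either direction. CDH6, a renal cadherin, had a blocked log2 fold change of -1.78 (SE 0.37, edgeR adjusted p = 0.0991), of the size of that of IGFBP6. The part of these markers in the difference was not tested.

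IGFBP1, a hypoxia-inducible binding protein secreted mainly by liver, was at 8.90, 11.04 and 8.13 CPM in controls and 12.9, 14.3 and 12.5 CPM with HIF-2α overexpression. The libraries of the pools did not overlap and the ratios were 1.45, 1.30 and 1.54, but the log2 difference of 0.50 (SE 0.40) did not pass the test with edgeR (adjusted p = 0.855, or 0.531 with the block). Libraries that did not overlap between the pools were seen for 2 of the 8 genes, IGFBP1 above and IGFBP6 below control, against 11.2% of all genes tested.

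IGFBP3, per kb the highest of the set in each of the 3 control libraries, was at 354, 1100 and 2519 CPM in controls and at 1078, 2567 and 6707 CPM in HIF-2α overexpressing cells. The groups overlapped, since the libraries of each pool spread over a wide range, but within each replicate number the HIF-2α library was higher, by 3.05, 2.33 and 2.66 times (mean 2.68 ± 0.358, SD, n = 3). The log2 fold change was 1.38 (SE 0.95) without and 1.44 (SE 0.38) with the block, with edgeR adjusted p-values of 0.842 and 0.166. DESeq2 with the same block put it past the threshold (adjusted p = 0.00477).

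IGFBP7, a low-affinity member of the family found around vessels and in senescent cells, was at 182, 193 and 420.5 CPM in controls and 190.3, 221 and 400.0 CPM in HIF-2α overexpressing cells. Its ratios of 1.05, 1.14 and 0.951 were the closest to 1 of the 8 genes, and its blocked log2 fold change was 0.06 (SE 0.25, edgeR adjusted p = 0.937). IGFBP4, whose complex with IGF is opened by the protease PAPPA, was at 7.27, 7.43 and 29.2 CPM in controls and 5.63, 7.92 and 11.6 CPM with HIF-2α. Its blocked log2 fold change was -0.43 (SE 0.43, edgeR adjusted p = 0.658), and its sign without the block turned when control replicate 3 was left out.

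IGFBP5, a binding protein held in the extracellular matrix, was at 0.103, 0.0569 and 1.49 CPM in controls (4, 2 and 57 counts) and 0.433, 2.20 and 3.98 CPM in HIF-2α overexpressing libraries (18, 63 and 155 counts). This comparison shares its control libraries with the contrast through which IGFBP5 entered the set. The blocked log2 fold change was 2.43 (SE 0.61, edgeR adjusted p = 0.158), against 1.99 (SE 1.16, adjusted p = 0.842) without the block. When 1 library was left out the blocked value ran from 1.80 (without control replicate 2) to 3.66 (without control replicate 3), and without HIF-2α overexpressing replicate 2 it was 1.81. DESeq2 with the block put it past the threshold (adjusted p = 0.00189). Because of the shared control libraries, these values of IGFBP5 are a description and no independent test.

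Both receptors were somewhat higher on average with HIF-2α, without passing the test. IGF1R was at 29.4, 53.6 and 31.4 CPM in controls and 35.4, 71.7 and 80.6 CPM in HIF-2α overexpressing cells, higher in all 3 replicate numbers (ratios 1.20, 1.34 and 2.57), with a blocked log2 fold change of 0.67 (SE 0.22, edgeR adjusted p = 0.248). IGF2R was at 719, 369.8 and 165 CPM in controls and 635, 793 and 352 CPM with HIF-2α, with ratios of 0.884, 2.14 and 2.14 and a blocked log2 fold change of 0.67 (SE 0.27, edgeR adjusted p = 0.318). Of the 8 tested genes 4 (IGFBP1, IGFBP3, IGFBP5 and IGF1R) were higher in all 3 replicate numbers, where 19.7% of all genes were. IGFBP6 alone was lower in all 3, where 19.4% were. The 4 include IGFBP5, which was chosen with these control libraries, so this count is a description and no test.

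The ligand IGF2 had 0 counts in all 9 libraries, as did the read-through locus INS-IGF2. A count of 0 allows up to 3 counts, which is 0.0553 to 0.108 CPM in these libraries, and this covers counting error only. Of the 7146 exonic bases of IGF2 in the annotation used here, 2711 are shared with ENSG00000284779, 1460 (20.4%) with INS-IGF2, 373 with ENSG00000240801 and 333 with the antisense IGF2-AS. Counts in shared stretches can be lost when a read falls in more than 1 gene, so the 0 says nothing of reads there. IGFBP2, the main binding protein of cerebrospinal fluid, had 1, 0 and 0 counts in controls, 0, 1 and 7 in HIF-1α re-expressing libraries and 0, 1 and 0 in HIF-2α overexpressing ones, which left it below the filter. IGF1 had 5 to 16 counts per library.

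HIF-1α against control, the contrast that brought IGFBP5 into the set, is described for all 8 genes without a test. IGFBP5 was at 2.50, 3.49 and 12.5 CPM in HIF-1α re-expressing libraries (102, 138 and 669 counts), all above the highest control at 1.49 CPM. Its ratios to the control library of the same number were 24.2, 61.4 and 8.39, the blocked log2 fold change was 3.96 (SE 0.61), and without the block it was 3.48 (SE 1.21). With the block it ran from 3.38 without control replicate 2 to 5.18 without control replicate 3, the control with most of the IGFBP5 counts. Over all genes the blocked fit placed 7.96% past the threshold (5.41% upward), and 12.9% had all HIF-1α libraries above all controls. IGFBP5 stood among these genes because it was chosen for this contrast, so its place there is no test.

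In the same contrast IGFBP6 was close to its control levels, at 48.1, 30.0 and 55.9 CPM in the HIF-1α re-expressing libraries, with ratios of 0.775, 1.13 and 1.17 and a blocked log2 fold change of 0.00 (SE 0.19). IGFBP3 was at 334, 3786 and 3917 CPM (blocked log2 fold change 0.87, SE 0.38), and its ratios of 0.943, 3.44 and 1.55 differed more between replicate numbers than those with HIF-2α. IGFBP1 was at 6.10, 8.76 and 20.2 CPM, below control in 2 of 3 replicate numbers and 2.48 times control in the other. IGFBP4, at 6.01, 6.23 and 58.6 CPM, likewise stood apart in 1 library, number 3, which was also the highest control at 29.2 CPM. IGFBP7 was at 131, 352 and 481 CPM (blocked log2 fold change 0.22, SE 0.25).

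Both receptors lay above the control library of the same number in 3 of 3 replicate numbers. IGF1R was at 36.1, 78.3 and 72.0 CPM (ratios 1.23, 1.46 and 2.29, blocked log2 fold change 0.66, SE 0.22), and IGF2R at 874, 635 and 402 CPM (ratios 1.22, 1.72 and 2.44, blocked log2 fold change 0.75, SE 0.27). These values and those with HIF-2α were set against the same control libraries.

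**Figure D2:**
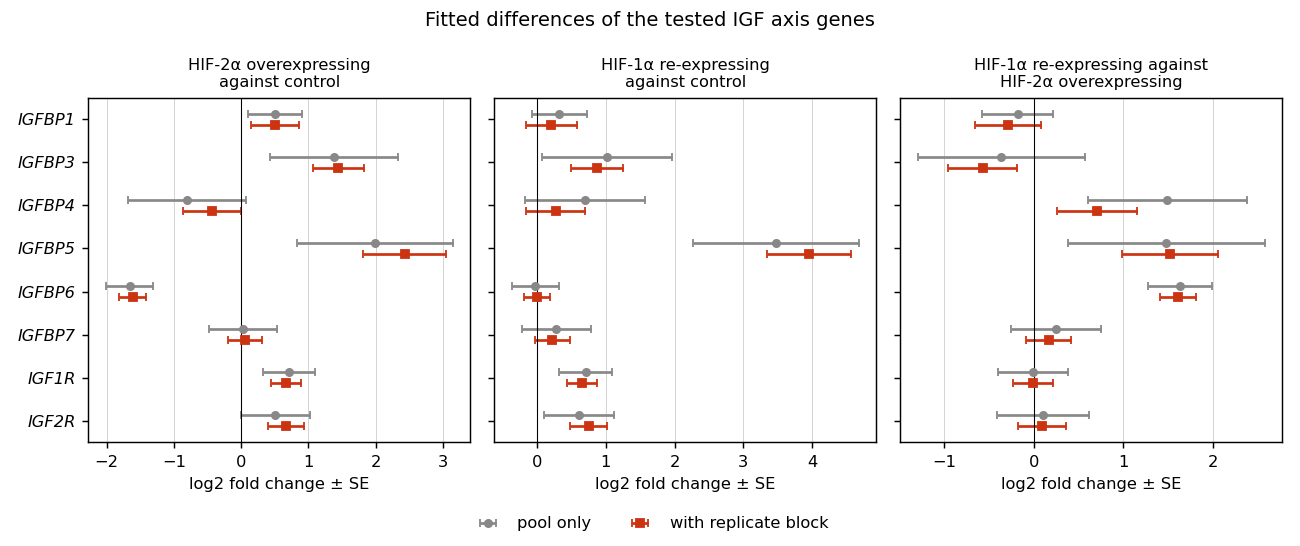
Fitted log2 fold change ± SE of the 8 tested genes in the 3 comparisons, from the fit on the pool only (grey circles) and with the replicate number as a block (red squares). IGFBP6 lay at -1.61 with HIF-2α against control and at 0.00 with HIF-1α against control, and the block narrowed the error bars, that of IGFBP3 from 0.95 to 0.38 with HIF-2α.

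The direct comparison of HIF-1α re-expressing with HIF-2α overexpressing cells asked which genes the isoforms left at different levels. IGFBP6 was 3.24, 2.73 and 3.23 times higher in the HIF-1α re-expressing library of the same number (mean 3.07 ± 0.292, SD, n = 3), and its libraries did not overlap. The log2 difference was 1.63 (SE 0.35, edgeR adjusted p = 0.0872) without and 1.61 (SE 0.20, adjusted p = 0.00404) with the block. With the block IGFBP6 was called in 9 of 9 fits that left out 1 library (adjusted p = 0.00389 to 0.0324). It was the only 1 of the 8 genes called, where 7 genes passed without the block (0.0492% of those tested) and 843 with it (5.93%, with 4.54% higher), and this difference shares the HIF-2α overexpressing libraries with that against control. Of the 8 renal markers, CDH6 (log2 difference 2.04, SE 0.38, adjusted p = 0.0172) and CA9, a known HIF-1 target (8.85, SE 1.55, adjusted p = 0.0147), were also higher in HIF-1α re-expressing cells by the blocked edgeR fit, and their part in the difference was not tested. The list had 4 positive and 4 negative log2 differences without the block, with a median of 0.12. CA9 rested on 5, 3 and 27 counts in the HIF-2α overexpressing libraries. IGFBP6 was also the only gene of the set with all HIF-1α libraries above all HIF-2α libraries, as 10.4% of all genes were.

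None of the other genes passed in this comparison under the main or the blocked edgeR fit. IGF1R was almost level, with ratios of 1.02, 1.09 and 0.893 and a blocked log2 difference of -0.01 (SE 0.22, adjusted p = 0.979), and so was IGF2R at 0.09 (SE 0.27, adjusted p = 0.871). IGFBP3 was at -0.57 (SE 0.38, adjusted p = 0.380), IGFBP1 at -0.29 (SE 0.37, adjusted p = 0.652), IGFBP7 at 0.17 (SE 0.25, adjusted p = 0.721) and IGFBP4 at 0.70 (SE 0.45, adjusted p = 0.360). IGFBP5 is described only: its 3 ratios were 5.77, 1.59 and 3.13, with a blocked log2 difference of 1.53 (SE 0.54).

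How much of each gene's spread over the 9 libraries followed the pool and how much the replicate number differed sharply within the set. IGFBP6 had 78.1% of the variance of its log2 CPM between pools and 18.9% between replicate numbers, and IGFBP5 60.0% and 32.7%, the latter over libraries that include those by which it was chosen and therefore no evidence of its place in the set. The reverse held for IGFBP7 (1.67% and 82.3%), IGFBP4 (7.15% and 74.0%), IGFBP3 (16.0% and 76.2%), IGF2R (22.8% and 63.7%) and IGF1R (31.5% and 55.2%), with medians of 32.6% and 35.9% over all tested genes. IGFBP1 had 19.9% and 19.4%, so most of its spread followed neither.

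The mean of IGFBP3 over the 3 pools was 588 CPM in libraries numbered 1, 2485 in those numbered 2 and 4381 in those numbered 3, and for IGFBP7 these means were 168, 255 and 434 CPM. IGFBP4 was at 6.30, 7.19 and 33.2 CPM, and IGF2R went the other way at 743, 599 and 306 CPM. What the numbers stand for is not given in the sources used here. The matrix gene LUM was also lowest in the library numbered 1 of each pool (1.86, 1.00 and 0.457 CPM in control, HIF-1α re-expressing and HIF-2α overexpressing cells) and highest in that numbered 3 (5.24, 10.4 and 7.55 CPM). Of the other fibroblast markers COL1A1 had the same order in each pool. PDGFRB did not, at 0.241, 0.140 and 0.231 CPM in HIF-2α overexpressing libraries 1, 2 and 3, and COL1A2 and DCN fell below the filter. The part of these markers in the differences was not tested.

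**Figure D3:**
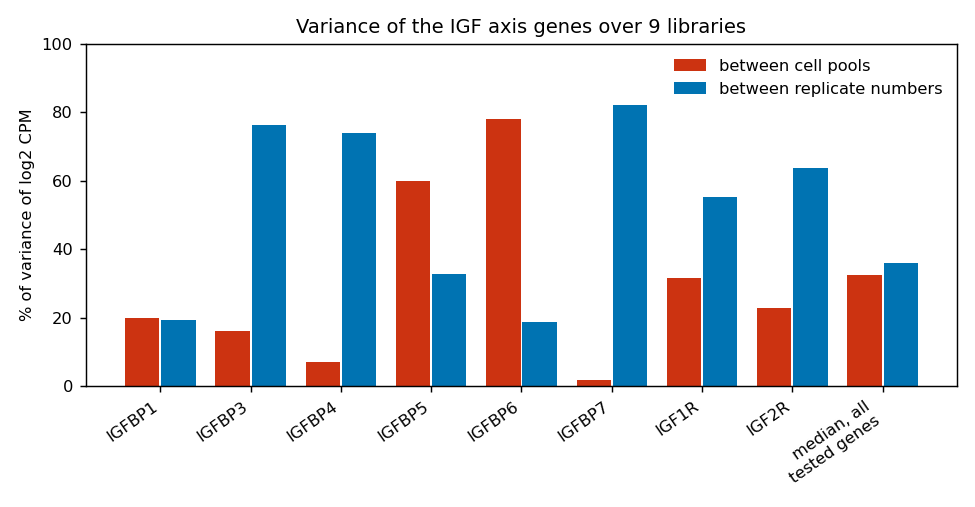
Share of the variance of log2 CPM over the 9 libraries that lay between cell pools (red) and between replicate numbers (blue), for the 8 tested genes and as the median of all tested genes. Pools held 78.1% for IGFBP6 and 1.67% for IGFBP7, and replicate numbers held 82.3% for IGFBP7.

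HIF binding near these genes was counted as a peak whose midpoint lay within 10 kb of an annotated start site, with 1 ChIP library per antiserum and pool and therefore no test. A peak of at least 1 list lay near 6 of the 10 genes (IGFBP1, IGFBP3, IGFBP6, IGFBP7, IGF1R and IGF2R), where 38.9% of 22063 placed genes had one. With HIF-2α overexpression the HIF-2α list placed a peak at 4 of 10 genes (IGFBP1, IGFBP3, IGFBP6 and IGFBP7; 10.4% of all genes), whereas endogenous HIF-2α in control cells had none at any of the 10 (3.74%) and HIF-2α in HIF-1α re-expressing cells had none either (3.05%). HIF-1α had a peak at IGFBP6, IGFBP7 and IGF1R (23.9%). HIF-1β had one at IGFBP3, IGFBP6 and IGFBP7 in control cells (18.3%), at IGFBP3, IGFBP7, IGF1R and IGF2R in HIF-1α re-expressing cells (28.0%) and at IGFBP3 and IGF1R in HIF-2α overexpressing cells (11.3%).

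IGFBP6, the gene lower with HIF-2α, had its HIF-2α and HIF-1α peaks in the same first part of the gene, and neither overlapped HIF-1β in its own pool. The nearest HIF-1β midpoint in HIF-1α re-expressing cells was 17.7 kb upstream and that in HIF-2α overexpressing cells 49.9 kb upstream. None of the 4 HIF-2α peaks near the set in overexpressing cells overlapped HIF-1β there. The HIF-1α peaks at IGFBP7 and IGF1R did overlap HIF-1β peaks of their own cells.

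**Figure D4:**
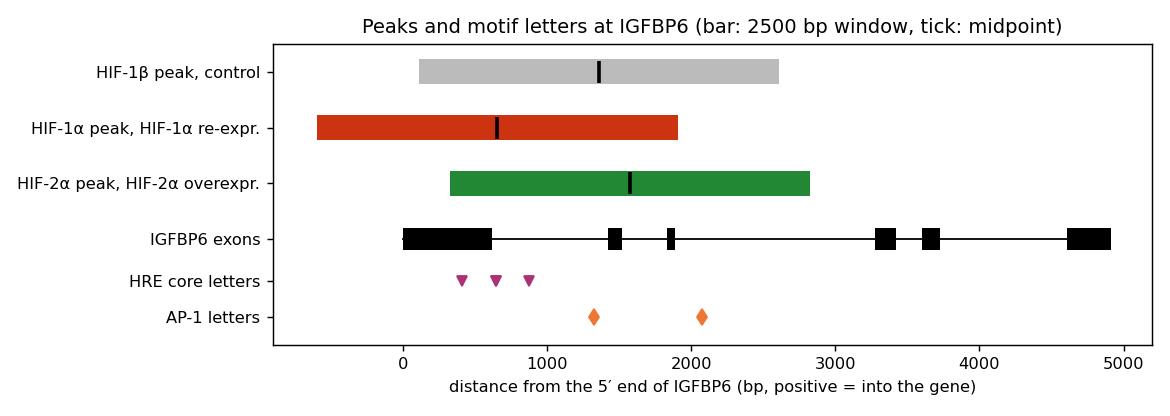
The 3 peaks at IGFBP6 drawn to scale as 2500 bp bars with a tick at the midpoint, above the exons of the gene (black) and the HIF core (purple) and AP-1 (orange) letters, by distance in bp from the 5′ end. The HIF-1α midpoint lies 657 bp into the gene, and those of HIF-1β in controls and of HIF-2α in overexpressing cells lie 1361 and 1574 bp into it.

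At IGFBP3 the HIF-2α midpoint of overexpressing cells lay 2.24 kb and the HIF-1β midpoint of control cells 2.10 kb upstream of the nearest start site, the former 111 bp and the latter 28 bp from a HIF core. The HIF-1β midpoints of the other pools lay closer in, 0.368 kb upstream in HIF-1α re-expressing cells and 0.0550 kb from a start site in HIF-2α overexpressing cells, there 3 bp from a HIF core. IGFBP1 had its only peak within 10 kb from HIF-2α in overexpressing cells, 3.51 kb upstream, with no HIF core or AP-1 letters in its central 300 bp.

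IGFBP7 had 4 midpoints between 0.0490 and 0.377 kb of its start site, from HIF-1β in controls, HIF-1α and HIF-1β where HIF-1α was re-expressed, and HIF-2α where it was overexpressed. The HIF-1α and HIF-1β midpoints of HIF-1α re-expressing cells were 10 and 26 bp from a HIF core, and the share of the variance of IGFBP7 between pools was the smallest of the 8 genes, as given above. At IGF1R the HIF-1α list held peaks on both sides of the start, with 3 HIF core matches in the central 300 bp of each, and the intronic stretch printed above contains CACGTG. Endogenous HIF-2α in control cells had a peak in an IGF1R intron, 42.4 kb from the nearest annotated start site. That peak overlapped a HIF-1β peak of control cells. The nearest HIF-2α midpoint was 1758 kb away in HIF-1α re-expressing and 168 kb away in HIF-2α overexpressing cells. IGF2R had a peak from HIF-1β in HIF-1α re-expressing cells only, 48 bp from its start site, and the bases immediately before that site hold CACGTG at 2 places.

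IGFBP5, which had the highest ratios of the set with HIF-1α, had no peak of any list within 50 kb, where 8 of the 10 genes and 57.7% of all placed genes had one. Its nearest HIF-1α midpoint was 87.7 kb away, beyond its 3′ end and 25.8 kb upstream of IGFBP2, and the nearest of all lists, HIF-1β in control cells, was 79.8 kb upstream. The promoter of IGFBP5 (250 bp before to 50 bp after the 5′ end) had no HIF core, as had none of those of IGFBP2, IGFBP4, IGFBP6 and IGF2, whereas the promoters of the other 5 genes had 1 to 6 matches and 51.7% of all promoters had at least 1. IGFBP4 was the other gene with no peak within 50 kb, its nearest midpoint lying 66.9 to 80.1 kb away, depending on the list.

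A site present in all 7 lists, noticed on the map of peaks, lay 56.2 to 57.0 kb upstream of the 5′ end of IGFBP3 and 89.7 to 90.5 kb from that of IGFBP1, where an exon of the long non-coding RNA ENSG00000237471 is annotated. The window of endogenous HIF-2α there was chr7:46016716-46019215, with its midpoint in that exon and with 2 HIF cores and 1 AP-1 match in its central 300 bp. HIF-1β in controls had 4 cores in its central 300 bp, and HIF-2α in HIF-1α re-expressing cells had 3. HIF-1α and HIF-1β in HIF-1α re-expressing cells had none there, nor had HIF-2α and HIF-1β in HIF-2α overexpressing cells. Their nearest cores lay 154 to 350 bp from the midpoint. Of the 1719 endogenous HIF-2α peaks 296 (17.2%) shared a base with a peak of each of the other 6 lists, and 839 of the placed genes (3.80%) had such a site within 100 kb of the 5′ end.

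**Figure D5:**
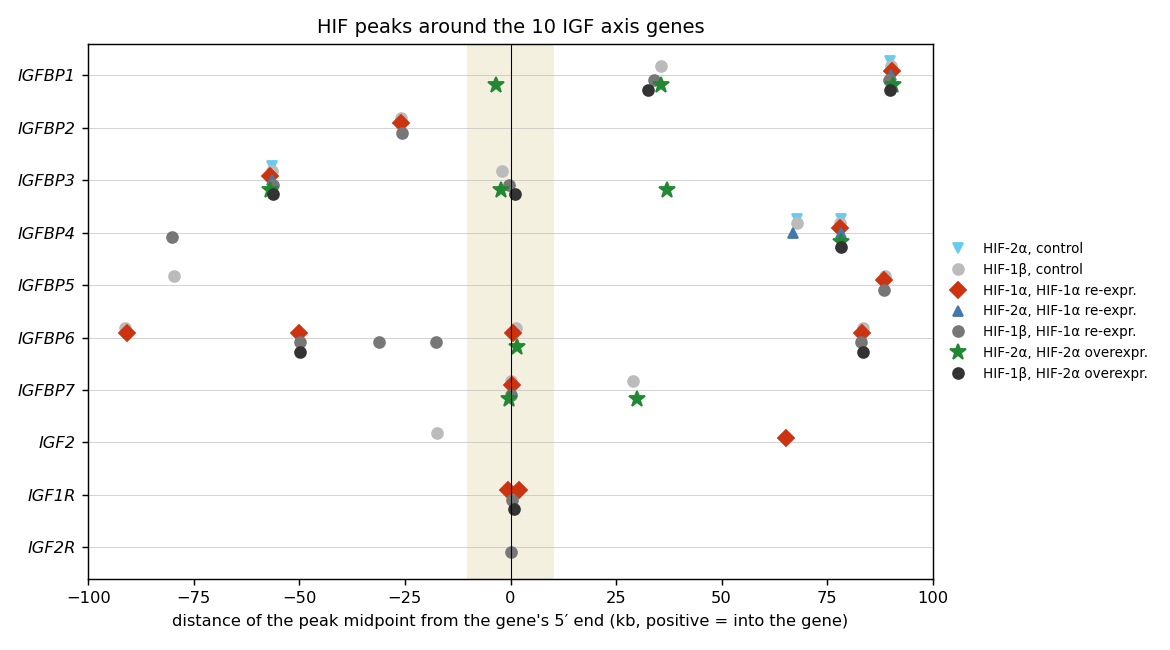
Midpoints of the peaks of all 7 lists (symbols) by distance in kb from the 5′ end of each of the 10 genes, positive into the gene, with the 10 kb range shaded. Only midpoints within 100 kb of the 5′ end are drawn, which leaves out the intronic HIF-2α and HIF-1β peaks of control cells at IGF1R. IGFBP5, IGFBP4, IGFBP2 and IGF2 have no point in the shaded range, and the 7 symbols near 57 kb upstream of IGFBP3 are the site present in every list.

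The rest of the pathway was read through 5 lists of genes. Among 12 proteases that release IGFs from binding proteins and their inhibitors, 0 passed with HIF-2α against control by the blocked edgeR fit (median log2 fold change 0.33, against -0.02 over all genes). The share over all genes tested was 0.267% in that comparison. In HIF-1α against HIF-2α expressing cells 2 of 12 were higher and 1 lower, against 5.93% of all genes in either direction. PAPPA, which cleaves IGFBP4, was at 3.70, 2.10 and 1.06 CPM in HIF-1α re-expressing cells against 0.193, 0.314 and 0.360 CPM in HIF-2α overexpressing cells (log2 difference 2.88, SE 0.55, adjusted p = 0.0192). MMP7, a matrix metalloprotease, had a log2 difference of 2.77 (SE 0.39, adjusted p = 0.00660). It was at 0.319, 7.39 and 60.2 CPM in HIF-1α re-expressing, 0.181, 4.38 and 31.1 in control and 0.120, 0.523 and 10.4 in HIF-2α overexpressing libraries. The libraries numbered 1 held 13, 7 and 5 MMP7 counts in these pools. With HIF-2α against control its blocked log2 fold change was -1.94 (SE 0.39, edgeR adjusted p = 0.0917). HTRA1, a secreted serine protease, was lower in HIF-1α re-expressing than in HIF-2α overexpressing cells (-1.82, SE 0.40, adjusted p = 0.0320). Its mean was 145 CPM both in HIF-1α re-expressing cells and in controls, and 436 CPM in HIF-2α overexpressing cells. Against control, PAPPA (2.84, SE 0.54, adjusted p = 0.0342) and ADAM12 (1.50, SE 0.23, adjusted p = 0.0293) passed with HIF-1α, which is 2 of 12 where 7.96% of all genes passed, in a list whose median was 0.70 against 0.04 over all genes. No gene of the 5 lists passed without the block in any of the 3 comparisons.

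Of 11 other proteins with an IGFBP-like domain 7 were tested. With HIF-2α against control 0 passed (median log2 fold change 0.26). WISP2, a matricellular CCN protein, was at 0.613, 6.18 and 39.7 CPM in HIF-1α re-expressing cells, 0.0776, 0 and 0.808 in controls and 0.0481, 0.733 and 1.82 in HIF-2α overexpressing cells. It passed the blocked edgeR test against control (5.53, SE 0.75, adjusted p = 0.0264), together with the transmembrane protein CRIM1 (0.94, SE 0.24, adjusted p = 0.0468), and was the only one to pass against HIF-2α (3.70, SE 0.65, adjusted p = 0.0145). That is 2 of 7 against control, where 7.96% of all genes passed, and 1 of 7 against HIF-2α, where 5.93% did. List medians were 0.94 and 0.68.

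Of the 3 IGF2 mRNA binding proteins, IGF2BP1 passed with HIF-1α against control (2.60, SE 0.67, adjusted p = 0.0487) and against HIF-2α (3.08, SE 0.72, adjusted p = 0.0390) in the blocked edgeR fit, at 1.00, 0.683 and 3.18 CPM in HIF-1α re-expressing cells. None of the 3 passed with HIF-2α against control, and the shares of all genes that passed were 7.96%, 5.93% and 0.267% in these comparisons. IGF2BP1 rested on 11, 7 and 9 counts in control and 10, 6 and 2 in HIF-2α overexpressing libraries. Of 8 further ligand and receptor genes 7 were in the table and only INSR, the insulin receptor, was tested. INSR was at 2.33, 1.49 and 4.17 CPM in HIF-1α re-expressing and 0.0481, 0.558 and 0.103 CPM in HIF-2α overexpressing cells (blocked log2 difference 3.58, SE 0.80, edgeR adjusted p = 0.0340). Its control libraries were at 0.285, 0.256 and 0.860 CPM, under all 3 HIF-1α re-expressing libraries, with a blocked log2 fold change of 2.58 (SE 0.71, adjusted p = 0.0543) for HIF-1α and -1.001 (SE 0.83, adjusted p = 0.589) for HIF-2α against control.

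Downstream of IGF1R, 43 of 44 adaptors, kinases and regulators of the PI3K, mTOR and MAPK branches were tested, and 0 passed with HIF-2α against control (median log2 fold change 0.04). In HIF-1α against HIF-2α expressing cells 0 of 43 were higher and 2 lower by the blocked edgeR fit, against 5.93% of all genes in either direction. IRS2, the docking protein that couples IGF1R and INSR to PI3K, was at 358, 419 and 320.0 CPM in HIF-1α re-expressing, 705, 1005 and 935 in HIF-2α overexpressing and 534, 513 and 331 in control libraries (log2 difference -1.28, SE 0.22, adjusted p = 0.0134). RPTOR, the mTORC1 scaffold, followed at -1.01 (SE 0.23, adjusted p = 0.0345). It was at 68.8, 66.8 and 43.1 CPM in HIF-1α re-expressing, 68.4, 50.0 and 48.2 in control and 101, 120 and 132 in HIF-2α overexpressing libraries. With HIF-1α against control 1 of 43, SESN3, passed (2.42, SE 0.60, adjusted p = 0.0455), at a list median of 0.22, where 7.96% of all genes passed.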

How the data were processed

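RNA-seq was analysed in 9 libraries (3 per pool) and ChIP-seq in 7 peak lists. Input DNA was not used here, having no peak list. The authors trimmed reads with Trim Galore 0.3.3, aligned RNA reads to GRCh37 with TopHat2 2.0.8b and Bowtie 1.0.0, kept uniquely mapping fragments and deposited raw counts per UCSC gene from HTSeq 0.5.4p3 in its strict intersection mode, which drops fragments that fall in more than 1 gene. ChIP reads were aligned with BWA 0.7.5a-r405 and stripped of duplicates with Picard 1.106, and the authors deposited windows found by both T-PIC and MACS, without scores.

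Counts were tested with edgeR 4.0.16 (R 4.3.3): TMM factors, filterByExpr, quasi-likelihood test, Benjamini-Hochberg adjustment over 14225 genes, threshold 0.05, cell pool as the only term. The SE is the log2 fold change divided by the square root of F. CPM values use the TMM-adjusted library sizes, and the limit for a count of 0 uses the totals. Alternatives were the replicate number as a block, DESeq2 1.42.0 with and without it, RLE factors, no filter, 2 pools only, and each library left out. The replicate numbers were taken as pairing the samples from the correlations given in the Results. The edgeR fit was tested on simulated data for HIF-2α against control with 200 of 14225 genes changed by 2 log2 units: with a simulated replicate effect it recovered 0% without the block and 93% with it, and without that effect 68.5% and 62.5%. False calls numbered 0 and 10 with the effect, and 4 and 7 without it. The size of the effect was set by choice. Data with it used the dispersions of the blocked fit and data without it those of the unblocked fit. Noise therefore differed as well, and the shares do not say which fit suits the real libraries. Start sites are from GENCODE 44 lifted to GRCh37, to which 20654 symbols matched directly and 1409 through older symbols, leaving 1378 unmatched. Motifs were searched on both strands. Members, lists and tests were chosen with earlier results of these data known. Named genes were the 10 members, HIF1A and EPAS1, up to 4 genes per list and comparison with the largest change among those past the threshold, and the 5 genes whose log2 CPM was most like that of IGFBP5. LUM, COL1A1, PDGFRB, COL1A2, DCN, CDH6 and CA9 were named after their values were seen.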

Additional observations from a re-analysis of the deposited data

How the results depend on the processing

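In the edgeR fits of all 9 libraries with the replicate block, IGFBP6 was the 1 gene of the set called with HIF-2α against control and in HIF-1α against HIF-2α. Without the block 0 were called. With HIF-1α against control, the contrast through which IGFBP5 was chosen, the counts below describe the fits and test nothing: 0 without and 1 (IGFBP5) with the replicate block. In edgeR with all 9 libraries, the block moved no other of the 8 genes across the threshold. DESeq2 without the block called 1 (IGFBP6) with HIF-2α against control, 1 (IGFBP6) in HIF-1α against HIF-2α and 0 with HIF-1α against control, and DESeq2 with the replicate block called 3 (IGFBP3, IGFBP5 and IGFBP6) with HIF-2α against control, 1 (IGFBP5) with HIF-1α against control and 2 (IGFBP5 and IGFBP6) in HIF-1α against HIF-2α. All 3 comparisons use libraries of the contrast that chose IGFBP5, so the calls of IGFBP5 are a description and test nothing. Over all genes, calls with HIF-2α against control numbered 0 in the main fit, 38 with the replicate block, 65 with DESeq2, 487 with DESeq2 and the block, 1 with no filter and 2 with only the libraries of the 2 pools. With HIF-1α against control they numbered 0, then 1132 with the block, 736 with DESeq2 and 2997 with DESeq2 and the block. In HIF-1α against HIF-2α they numbered 7, then 843 with the block, 639 with DESeq2, 1799 with DESeq2 and the block, 82 with no filter and 0 with only those 2 pools.

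Each library was also left out in turn, without the block and, as an alternative chosen after seeing the data, with it. Genes called then ran from 0 to 94 with HIF-2α against control, 0 to 2408 with HIF-1α against control and 0 to 890 in HIF-1α against HIF-2α, and genes of the set called from 0 to 1, 0 to 3 and 0 to 1. The log2 fold change of IGFBP6 kept its sign in all 24 alternatives of both its tested comparisons, at -1.93 to -1.37 (called in 8) and 1.44 to 1.83 (called in 12). Signs turned when a library was left out for IGFBP7 (-0.36 to 0.53) and IGFBP4 (-1.13 to 0.19) with HIF-2α against control and, in HIF-1α against HIF-2α, for IGFBP1 (-0.92 to 0.11), IGFBP3 (-1.19 to 0.52), IGFBP4 (-0.46 to 1.93), IGFBP7 (-0.18 to 0.61), IGF1R (-0.32 to 0.25) and IGF2R (-0.21 to 0.35), none of which was called in any of these fits. With HIF-1α against control, described only, signs turned for IGFBP1 (-0.41 to 0.62), IGFBP4 (-1.26 to 1.68), IGFBP6 (-0.31 to 0.26) and IGFBP7 (-0.14 to 0.77). The cause was not tested.

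Within 50 kb the genes with a peak numbered 1 (IGF1R) for HIF-2α and 7 for HIF-1β in controls (9.31% and 35.1% of all placed genes), 5 for HIF-1α and 7 for HIF-1β in HIF-1α re-expressing cells (39.2% and 43.9%), and 4 for HIF-1β in HIF-2α overexpressing cells (23.4%). Counting only peaks that shared a base with a peak of the partner subunit in the same cells left 0 for HIF-1β in controls (3.40%), 2 for HIF-1β in HIF-1α re-expressing cells (16.5%), and 0 for HIF-2α (5.65%) and HIF-1β (5.67%) in HIF-2α overexpressing cells. IGFBP5 rests on 2 to 669 counts per library and IGFBP2 on 0 to 7, which limits both. Called genes of the pathway lists had few counts as well. In HIF-2α overexpressing libraries INSR had 2, 16 and 4 counts and PAPPA 8, 9 and 14, and WISP2 had 3, 0 and 31 in controls.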

Other observations

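The 5 tested genes whose log2 CPM over the 9 libraries was most like that of IGFBP5 were KIF26A (Pearson r = 0.953), SMIM17 (0.946), TPPP (0.942), NRBP2 (0.930) and LOC100505625 (0.927). These values describe 9 libraries that share pools, depth and replicate numbers, and they carry no p. KIF26A, a kinesin-like protein, was at 0.670 CPM in HIF-1α re-expressing replicate 3, where IGFBP5 also had its highest value, and at 0.0259 and 0.0284 CPM in control replicates 1 and 2, where IGFBP5 was near 0. TPPP, a tubulin polymerisation-promoting protein, ranged from 0.996 to 2.89 CPM. NRBP2, a pseudokinase, ranged from 47.4 to 119 CPM, so the likeness to IGFBP5 held for genes at very different levels and with much smaller folds.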
